A study of Nicotiana with 12 samples.

Results

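TBG3, TBG4 and TBG6 are beta-galactosidase genes of tomato, and each was read here by 1 probe set of a tomato microarray in RNA of tobacco (Nicotiana) leaves. The 3 probe sets were taken from the 10101 non-control probe sets by their gene symbol, among 909 that the annotation gives exactly 1 symbol. The genes were chosen from their measured values in these same leaves, above all the stress differences of TBG3 and TBG4 in wild type. Their levels and differences are therefore a description, given with errors and without p-values. No filter on low values was applied, so all 3 stayed in the fit.

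Leaves of wild-type (WT) and PSARK::IPT tobacco (IPT below) were sampled at about 10 weeks of age. The IPT plants carry the gene of isopentenyltransferase, a cytokinin synthesis enzyme, behind the promoter of the senescence-associated receptor kinase SARK; the labels do not say how many transgenic lines were used or whether plants were pooled. In the greenhouse, to which they were moved at 3 weeks, plants were given a daily 1000 mL per pot (watered) or only 300 mL (stressed), and this lasted 45 days. The 4 groups (watered WT, stressed WT, watered IPT, stressed IPT) had 3 biological replicates each, with 1 array per replicate, 12 arrays in all, and this number limits the precision.

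The authors deposited RMA values on a log2 scale; RMA corrects background, brings the arrays to one distribution and summarises the probes into a value per probe set. Tomato probes read tobacco RNA, so a probe set is compared only with itself between groups, and a signal may come from any tobacco transcript close enough to bind, including another beta-galactosidase. Whether it did was not tested. In whole leaves, fewer cells that express a gene and less RNA per cell cannot be told apart. The 7 leaf marker probe sets of chlorophyll-binding and photosystem II proteins lay at a percentile of at least 84.8 on every array. The bacterial poly-A control RNAs, spiked in before labelling, averaged 9.90 ± 0.03 (SD, n = 3 arrays) in watered and 7.85 ± 0.41 in stressed WT, and in IPT 8.12 ± 0.16 when watered and 8.38 ± 0.08 under stress. Their 3' minus 5' difference, which grows as labelling falls short of the 5' end, was 2.23 ± 0.08, 4.45 ± 0.87, 2.79 ± 0.43 and 3.59 ± 0.10 in the same order, and it was largest, 5.44, in stressed WT replicate 2. These controls moved with the groups, so each member is also given below with the 3' minus 5' difference as a covariate.

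Beta-galactosidases of this plant family remove galactose from the ends of sugar chains in the cell wall, mainly from the galactan side chains of pectin and from xyloglucan. Loss of wall galactose accompanies growth, ripening and senescence. In tomato, the family is best known from fruit. There TBG4 encodes the enzyme long called beta-galactosidase II, which is active on galactan during softening, and TBG6 is expressed in young, expanding fruit.

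TBG3 (NCBI Gene 543609) was high in stressed WT leaves and in no other group. It stood at 5.32, 5.43 and 5.06 on the watered WT arrays and at 8.45, 8.41 and 8.58 on the stressed WT arrays. On the IPT arrays it stood at 5.51, 5.54 and 5.45 when watered and at 5.56, 5.53 and 5.54 under stress. The stressed WT arrays lay far above all other arrays, whereas the watered and stressed IPT arrays overlapped and watered WT lay just below both. In WT the mean was 5.27 ± 0.19 (SD, n = 3) when watered and 8.48 ± 0.09 under stress, and in IPT 5.50 ± 0.05 and 5.54 ± 0.02. Stress thus went with a log2 difference of 3.21 (SE 0.12, 9.24-fold) in WT and of 0.04 (SE 0.12, 1.03-fold) in IPT.

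In WT that was the largest positive difference of all 10101 probe sets in the fit. The stress effect in IPT minus that in WT, -3.17 (SE 0.17), was the lowest of all. By size, whatever the sign, each ranked 3. TBG3 was chosen for its stress difference in WT, so nothing is read from these ranks. Under stress IPT stood 2.94 (SE 0.12, 7.66-fold) below WT. Between the watered genotypes the gap was 0.23 (SE 0.12), with no overlap of arrays but only 2.15 times the pooled SD of 0.11. In order of level, stressed WT stood 27.4 pooled SDs above the next group, while watered and stressed IPT, the neighbours below it, did not differ beyond their spread. With the poly-A covariate the WT stress difference was 3.42 (SE 0.25) and that in IPT 0.12 (SE 0.14). When each array was left out in turn the WT difference lay between 3.10 and 3.29. The mean of the 7 leaf markers ranged from 9.83 to 9.88 over the stressed WT arrays and from 10.15 to 10.16 over watered WT, 10.34 to 10.38 over watered IPT and 10.37 to 10.47 over stressed IPT. Its part in the TBG3 difference was not tested.

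**Figure D1:**
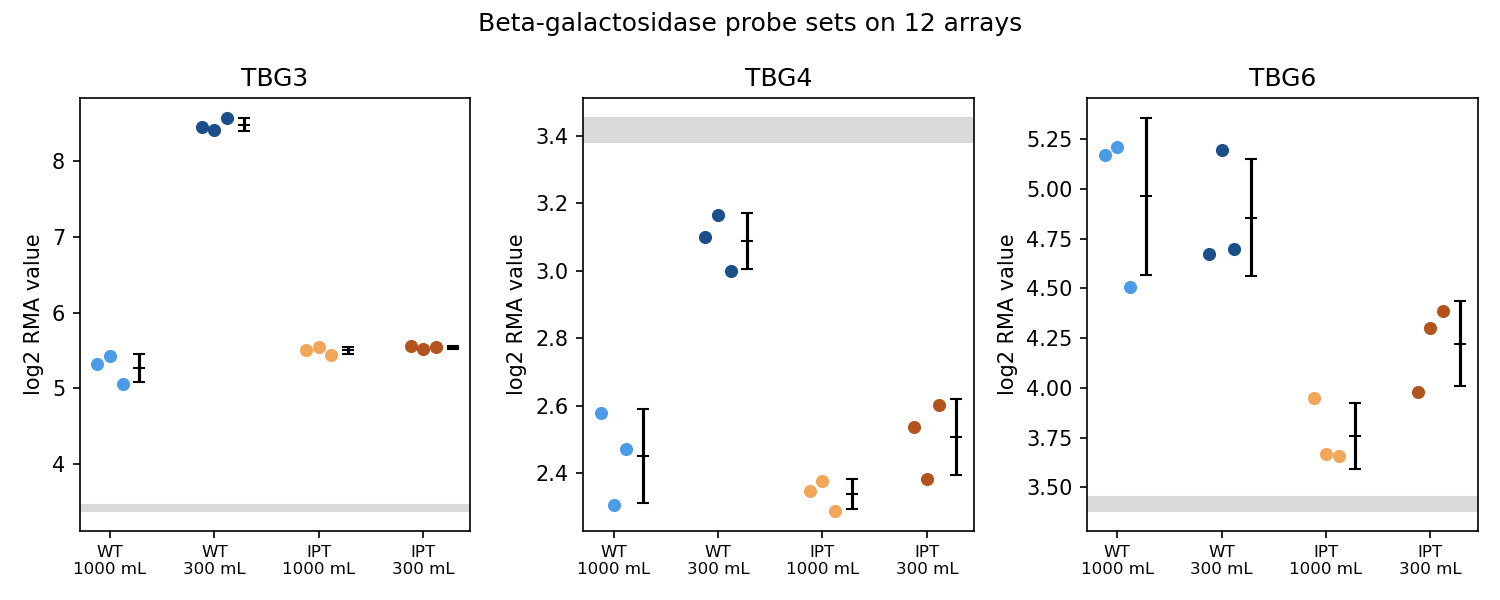
Log2 RMA values of TBG3, TBG4 and TBG6 on each of the 12 arrays (points), with the group mean and SD (bars, n = 3), in watered (1000 mL) and stressed (300 mL) WT and IPT leaves; the grey band is the range of the array medians and each panel has its own axis. TBG3 stands between 8.41 and 8.58 in stressed WT and below 5.6 on all other arrays, TBG4 shows its highest values in the same group, and TBG6 is lower on the IPT arrays.

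TBG4 (NCBI Gene 543736) shared the order of TBG3 at its top, with a smaller difference and a dim signal. It stood at 2.58, 2.30 and 2.47 in watered WT and at 3.10, 3.17 and 3.00 in stressed WT. In IPT it stood at 2.35, 2.38 and 2.29 when watered and at 2.54, 2.38 and 2.60 when stressed. The stressed WT arrays lay above all others, and those of watered WT overlapped with both IPT groups. On all 12 arrays the value was below the array median, which ranged from 3.38 to 3.45. Its signal over background is unknown, so the size of its differences is uncertain.

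The stress difference of TBG4 was 0.64 (SE 0.12, 1.56-fold) in WT, from 2.45 ± 0.14 to 3.09 ± 0.08 (SD, n = 3). In IPT it was 0.17 (SE 0.12), from 2.34 ± 0.05 to 2.51 ± 0.11, and there the arrays did not overlap although the gap was small. Stressed IPT stood 0.58 (SE 0.12, 1.496-fold) below stressed WT, and watered IPT 0.11 (SE 0.12) below watered WT, where the arrays overlapped. The stress effect in IPT minus that in WT was -0.47 (SE 0.16). With the poly-A covariate the WT stress difference of TBG4 was 0.50, with an SE of 0.25 in place of 0.12. Its IPT stress difference was then 0.12 (SE 0.14) and the stressed genotype difference -0.53 (SE 0.14). The stress effect in IPT minus that in WT was -0.38 (SE 0.21) with the covariate.

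TBG6 (NCBI Gene 543612) stood lower in both IPT groups than in both WT groups. It stood at 5.17, 5.21 and 4.51 in watered WT and at 4.67, 5.19 and 4.70 in stressed WT. In IPT it stood at 3.95, 3.67 and 3.66 when watered and at 3.98, 4.30 and 4.39 when stressed. All IPT arrays lay below all WT arrays, the WT groups overlapped, and the stressed IPT arrays lay above the watered ones. It was also the most variable of the members within groups, with a pooled SD of 0.28 against 0.11 for TBG3 and 0.10 for TBG4.

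Watered IPT leaves stood 1.20 (SE 0.19, 2.30-fold) below watered WT leaves in TBG6, at 3.76 ± 0.17 against 4.96 ± 0.40 (SD, n = 3). Under stress the gap was 0.63 (SE 0.19, 1.55-fold), at 4.22 ± 0.21 against 4.85 ± 0.29. Stress went with a difference of 0.46 (SE 0.19, 1.38-fold) in IPT and of -0.11 (SE 0.19) in WT, and the stress effect in IPT minus that in WT was 0.57 (SE 0.27). In order of level, the neighbours watered and stressed WT did not differ beyond their spread, and stressed IPT lay 2.25 pooled SDs below stressed WT. With the poly-A covariate the genotype differences were -1.32 (SE 0.21) when watered and -0.45 (SE 0.23) under stress. The same covariate gave a stress difference of 0.29 (SE 0.23) in IPT. It moved the WT stress difference to -0.58 (SE 0.41). That difference was -0.33 (SE 0.18) without watered WT replicate 3, -0.28 without stressed WT replicate 2, and between -0.03 and 0.02 without any of the other WT arrays in turn, so its size and sign rest on single arrays. A list of 9 cyclin and cyclin-dependent kinase probe sets, taken by symbol alone, served as dividing-cell markers. Their mean ranged from 3.42 to 3.64 over the WT and watered IPT arrays and from 3.73 to 3.83 over the stressed IPT arrays. They did not all move alike. From watered WT to stressed IPT, CYCD3 went from 4.35 to 5.33, CDKB1 from 3.39 to 3.19 and CycB2 from 2.66 to 2.65, while the rest stood higher. The leaf marker means given above for TBG3 also separated the genotypes without overlap, higher in IPT. Of these markers CAB5 (5.97 against 6.16) and CAB4 (10.47 against 10.54) stood lower in watered IPT than in watered WT, and the rest higher. The part of either marker list in the TBG6 differences was not tested.

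Counted over the members, 2 of 3 had groups that did not overlap under stress in WT (TBG3 and TBG4), where this held for 27.7% of all probe sets. In IPT under stress it was 2 of 3 (TBG4 and TBG6) beside 22.6%. Between the watered genotypes it was 2 of 3 (TBG3 and TBG6) beside 31.5%, and between the stressed genotypes 3 of 3 beside 30.0%. Nothing is read from these counts, since the members were chosen with these comparisons known. The comparisons also share groups: stressed WT enters both the WT stress difference and the stressed genotype difference.

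The array holds the other genes of the family, TBG1, TBG2, TBG5 and TBG7, with 1 probe set each. These were not members and were tested, with a Benjamini-Hochberg adjusted p under 0.05 in limma over all 10101 probe sets as the threshold for "rose", "fell", "higher" and "lower". Under stress in WT, 11.3% of all probe sets passed, and so did TBG5 of these 4. TBG5 stood at 3.79, 3.63 and 3.65 in watered WT and at 4.22, 4.71 and 3.97 in stressed WT, without overlap. It rose by 0.61 (SE 0.17, limma adjusted p = 0.0291). Without stressed WT replicate 2, the array with the highest TBG5 value and the largest 3' minus 5' difference, the change was 0.40 (adjusted p = 0.138). It also failed without any of the watered WT arrays (0.0506, 0.0904 and 0.079) and with the WT arrays alone (0.0697), and with the poly-A covariate it turned to -0.20. TBG1 (-0.05), TBG2 (0.21) and TBG7 (-0.06) did not pass in WT.

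Under stress in IPT, where 1.36% of all probe sets passed, 0 of these 4 passed in limma and 1, TBG1 (0.35, adjusted p = 0.298), had an unadjusted p under 0.05. Between the watered genotypes 13.8% passed, among them TBG7, which was higher in IPT by 0.57 (SE 0.14, adjusted p = 0.0123). Without watered WT replicate 2 it was 0.47 (adjusted p = 0.0671), without watered IPT replicate 1 the gap was 0.46 (0.0774). The poly-A covariate likewise gave 0.46 (0.054). TBG2 (0.33, adjusted p = 0.135), TBG1 (0.20) and TBG5 (0.04) did not pass.

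Between the stressed genotypes 16.7% of all probe sets passed, and 3 of these 4 did. TBG7 stood at 3.44, 3.75 and 3.30 in stressed WT and at 4.30, 4.33 and 4.29 in stressed IPT, and was higher in IPT by 0.81 (SE 0.14, limma adjusted p = 0.000612). It passed under all 14 alternatives tried for this difference. TBG1 was higher by 0.60 (SE 0.15, adjusted p = 0.0096) and TBG5 lower by 0.68 (log2 -0.68, SE 0.17, adjusted p = 0.00957). Without stressed IPT replicate 2 neither passed (TBG1 0.48, adjusted p = 0.0582; TBG5 -0.54, 0.0588), and TBG5 also failed with the poly-A covariate (-0.37, 0.196). For the stress effect in IPT minus that in WT, where 1.90% of probe sets passed, 0 of the 4 passed in limma. TBG5 alone of them had an unadjusted p under 0.05 (-0.72, SE 0.24, adjusted p = 0.152). TBG1 was dim, below the array median on all WT and all watered IPT arrays, at 2.82 to 3.36. On the stressed IPT arrays it stood at 3.44 to 3.81, at or above the median.

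Across the family, then, the stressed WT values of TBG3, TBG4 and TBG5 stood above those of stressed IPT, as did those of TBG6, while TBG1 and TBG7 were higher in stressed IPT. TBG2 did not pass in any of the 5 comparisons. Over the 12 arrays, TBG3 and TBG4 had a Pearson correlation of 0.928 (Spearman 0.622), and TBG4 and TBG5 one of 0.835 (Spearman 0.608). TBG3 and TBG6 had 0.391. These describe 12 arrays in 4 groups, whose means set much of them: after the group means were removed, TBG3 and TBG4 had -0.332 and TBG4 and TBG5 had 0.653.

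**Figure D2:**
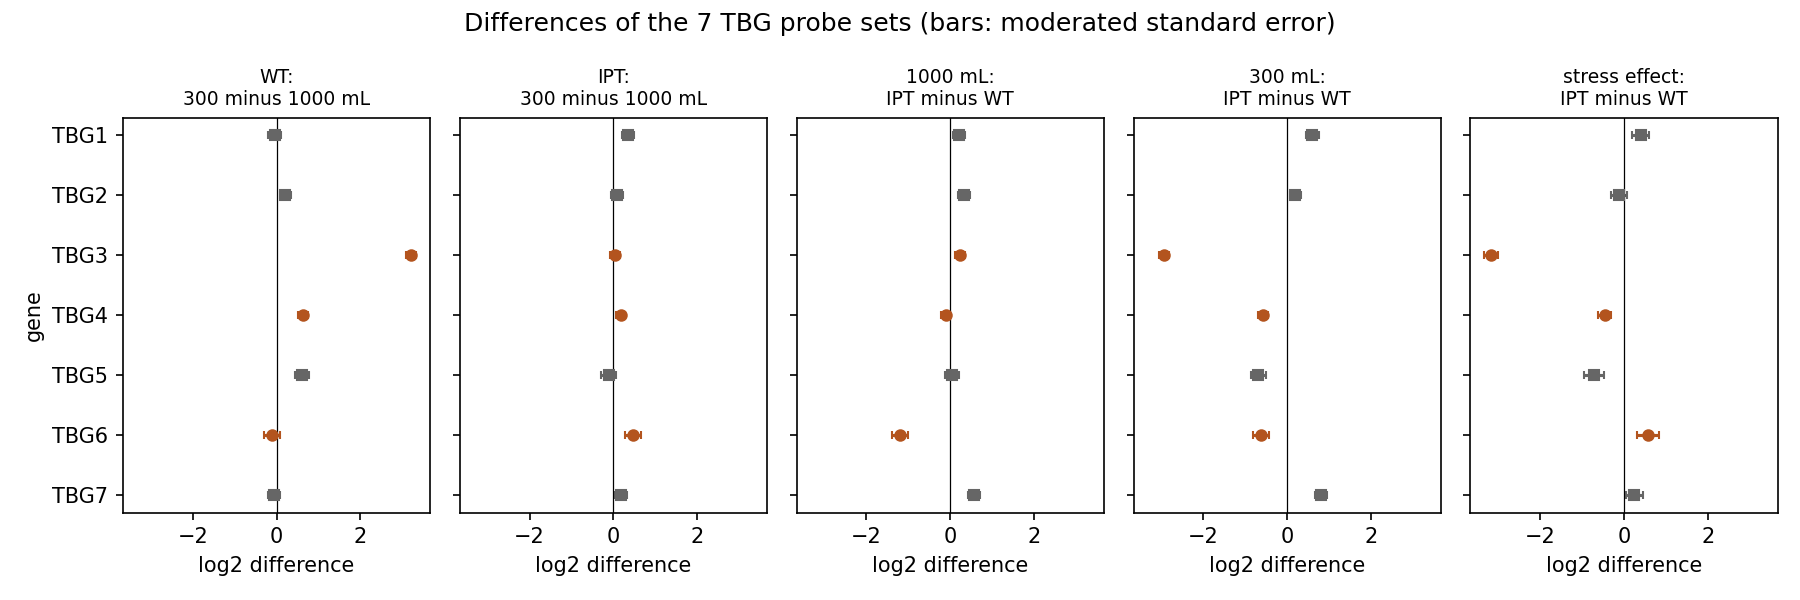
Log2 differences of the 7 TBG probe sets in 5 comparisons (panels), each with its moderated standard error from limma (bars; 3 arrays per group); circles are TBG3, TBG4 and TBG6, squares the other genes of the family. TBG3 stands at 3.21 in WT under stress and near 0 in IPT, TBG6 at -1.20 between watered genotypes, and TBG7 at 0.81 between stressed genotypes.

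The other genes of wall enzyme families on the array were listed by symbol alone, without the 3 members: 43 genes, among them the 4 beta-galactosidases above. Whether each enzyme acts in the wall was not tested. Under stress in WT, 5 rose, 2 fell and 36 did not pass, so 16.3% passed beside 11.3% of all probe sets. The median difference was 0.08, beside 0.04 over all probe sets. The endoglucanases, which cut glucan chains inside the wall, held 4 of the 7. Cel1 fell by 1.001 on the log2 scale (SE 0.15, limma adjusted p = 0.000356) and CEL8 fell by 0.57 on that scale (SE 0.12). The endoglucanase genes cel5 (0.51, SE 0.13) and Cel3 (0.37, SE 0.11), the expansin EXP12 (0.50, SE 0.13), the pectin methylesterase gene PMEU1 (0.64, SE 0.15) and TBG5 rose. Of these, cel5 was dim, with group means of 2.70 to 3.21. The 5 rises lay between 0.37 and 0.64. TBG3 stood at 3.21, but it was chosen for that difference, so no ranking is read from this. Over the alternatives tried, the Cel3 call was lost in 11 of 14 (adjusted p up to 0.631), those of EXP12 in 5 of 14 and of cel5 in 5 of 13, and those of Cel1, CEL8 and PMEU1 in 1 of 14 each, with the poly-A covariate. None of the 7 passed with the poly-A covariate, which left 0 of 43 passing in limma and 5 with an unadjusted p under 0.05. The SEs of the 7 were 0.24 to 0.32 with it, in place of 0.11 to 0.17. The differences of cel5 (0.998), CEL8 (-0.82) and Cel3 (0.39) lay further from 0 with it. Those of Cel1 (-0.71), PMEU1 (0.41) and EXP12 (0.17) lay nearer, and TBG5 changed sign. Leaving out watered WT replicate 1 gave a count of 3, and the count was 4 without watered WT replicate 2 or 3 or stressed WT replicate 2.

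Under stress in IPT, 2 of the 43 rose and 41 did not pass (4.65%, beside 1.36% of all), with medians of 0.03 and 0.00. They were CEL8 (0.56, SE 0.12, limma adjusted p = 0.0257) and the alpha-galactosidase AGAL (0.59, SE 0.12, adjusted p = 0.0175), whose enzyme removes galactose in the other linkage. CEL8 failed without any of the 6 IPT arrays in turn (adjusted p from 0.0747 to 0.108). AGAL failed without watered replicate 1 or 3 or stressed replicate 1 or 2 (0.0581 to 0.101). It was also dim, at 2.29 to 3.06 over the arrays, below every array median. The count was 0 without watered replicate 1 or stressed replicate 2 (6 and 7 at an unadjusted p under 0.05 in limma) and 1 without watered replicate 2 or 3 or stressed replicate 1. With the poly-A covariate the count was 0, with 7 of 43 at an unadjusted p under 0.05.

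Between the watered genotypes 5 of 43 were higher in IPT and 0 lower (11.6%, beside 13.8% of all), with a median of 0.12 beside 0.02. These were TBG7, the xyloglucan transglucosylases XTH16 (0.94, SE 0.14) and XTH7 (0.62, SE 0.18), PMEU1 (0.76, SE 0.15) and the dim cel5 (0.45, SE 0.13). The calls of XTH16 and PMEU1 passed in all 14 alternatives each, whereas that of XTH7 was lost in 6 of 14 (adjusted p up to 0.13) and that of cel5 in 6 of 13 (up to 0.107). The 3 XTH16 probe sets agreed in direction and not in size: those not counted stood at 1.35 and 2.22. The TBG6 gap of 1.20 runs the other way. The count was 3 without watered WT replicate 1, watered IPT replicate 2 or 3 or with the poly-A covariate, and 2 without watered IPT replicate 1.

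Between the stressed genotypes 9 of 43 were higher and 2 lower in IPT (25.6%, beside 16.7% of all), with a median of 0.10 beside -0.01. XTH16 (1.21, SE 0.14), CEL8 (1.16, SE 0.12) and the expansin EXP2 (0.85, SE 0.13) had the smallest p among those higher, and TBG5 and Cel3 (-0.37, SE 0.11) were the lower ones. EXP2 was dim, with group means of 2.38 to 3.23. The Cel3 call was lost in 7 of 14 alternatives (adjusted p up to 0.124). Cel1 (0.57) and PMEU1 (0.70) were also higher, Cel1 not without stressed WT replicate 2 (0.48, adjusted p = 0.0566) or with the poly-A covariate (0.46, 0.127). Of the XTH16 probe sets not counted, 1 stood at 1.41 and the other at 3.51 (11.4-fold, limma adjusted p = 4.82e-10). The latter also fell under stress in WT (-2.05, limma adjusted p = 1.45e-06) and in IPT (-0.76, adjusted p = 0.0386). The former fell in WT too (-0.46, limma adjusted p = 0.0436) and did not pass in IPT (-0.40, adjusted p = 0.196). The one counted stood at -0.02 and 0.25 and did not pass in either genotype. TBG3, TBG4 and TBG6 stood lower in stressed IPT than in stressed WT, with TBG5 and Cel3. The count was 7 without stressed IPT replicate 2 and 6 with the poly-A covariate. For the stress effect in IPT minus that in WT, 1 of 43 passed (2.33%, beside 1.90% of all), CEL8 at 1.12 (SE 0.17, adjusted p = 0.00104), and 9 of 43 had an unadjusted p under 0.05. Without watered WT replicate 2 the count was 2, and leaving out stressed WT replicate 3 gave 3. The uncounted XTH16 probe set that stood at 3.51 passed here as well (1.29, limma adjusted p = 0.00686), beside 0.27 for the one counted.

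**Figure D3:**
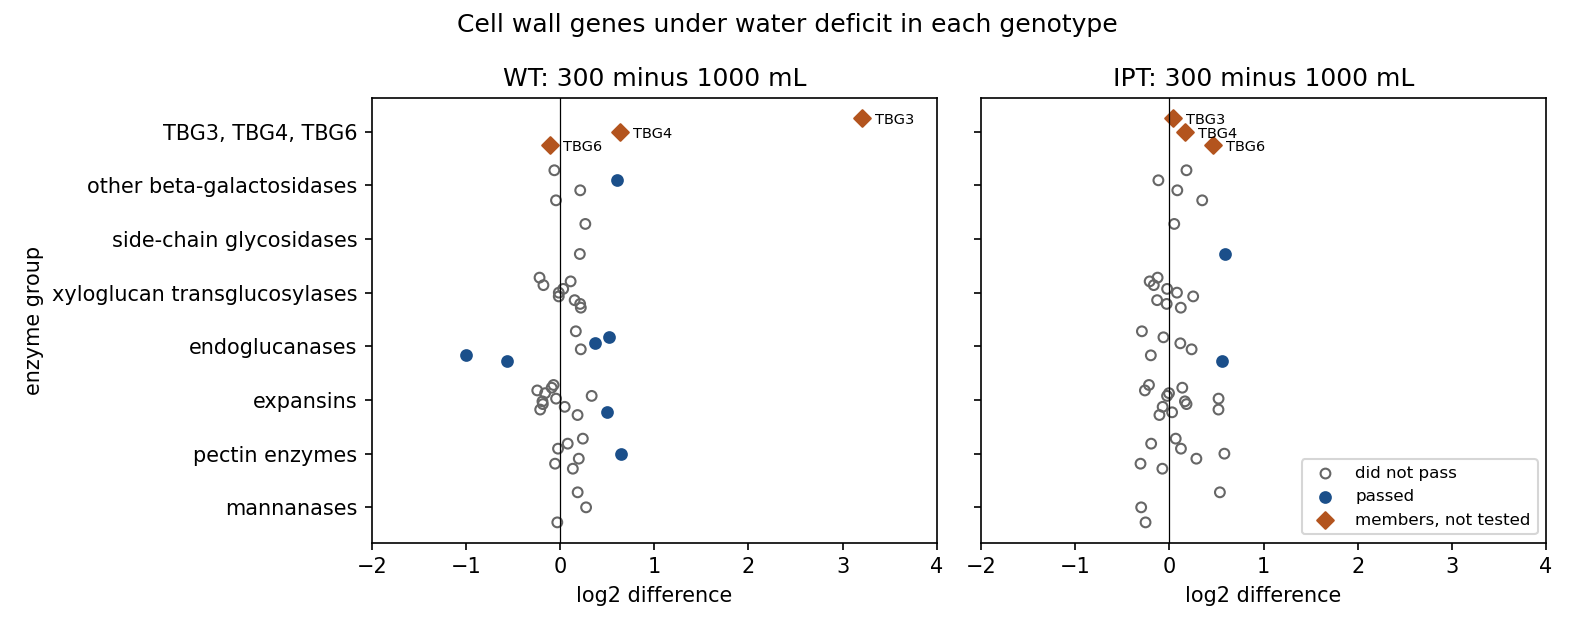
Log2 stress differences (300 minus 1000 mL) of the 43 other cell wall genes by enzyme group, in WT (left) and IPT (right), with TBG3, TBG4 and TBG6 in the top row; filled circles passed at a limma adjusted p under 0.05, open circles did not, and diamonds are the members, which were not tested. TBG3, chosen for this difference, lies at 3.21 in WT. The 43 other genes, each by its probe set of highest mean, lie between -1.001 and 0.64 there. Another XTH16 probe set, not plotted, stood at -2.05.

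Of a list of enzymes around galactose and nucleotide sugars, the array held GMP and GLDH. Both belong to the plant ascorbate pathway, which runs through L-galactose. GMP, GDP-mannose pyrophosphorylase, stood in WT at 4.004 ± 0.09 (SD, n = 3) when watered and 3.57 ± 0.14 under stress, and in IPT at 4.17 ± 0.06 and 4.25 ± 0.05. It fell in WT under stress (-0.43, SE 0.11, limma adjusted p = 0.0193) and under stress was higher in IPT than in WT (0.68, SE 0.11, adjusted p = 0.00037). These are the signs opposite to those of TBG3, and a link of GMP to wall galactose was not tested. The other GMP probe set, the dimmer one, gave -0.46 (adjusted p = 0.0619) and 0.47 (adjusted p = 0.0454). GLDH, galactonolactone dehydrogenase, did not pass in WT under stress (0.12) or between stressed genotypes (0.30, adjusted p = 0.192).

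The named probe sets whose pattern was most like each member were then found by Pearson correlation over the 12 arrays, among the 701 probe sets with another symbol that is a gene name, those with a symbol starting in LOC left out. These correlations are descriptions. Likeness to TBG3 was highest for PYD1A (0.969), ER66, known as an ethylene-responsive gene (0.954), and the bZIP factor abz1 (0.952). Each stood higher in stressed WT than in the other groups, with WT stress differences of 0.82, 0.57 and 1.36 and IPT differences of 0.09, -0.02 and -0.16. ER66 was dim, at 2.41 to 3.21 over the 12 arrays. Most opposite were the chlorophyll-binding protein gene CAB4 (-0.985) and the carbonic anhydrase ca2 (-0.957), with WT stress differences of -0.63 and -2.62. Over all 10100 other probe sets, 59 correlated with TBG3 at 0.9 or above (0.584%) and 22 at -0.9 or below. The Pearson values rest on the step at stressed WT: by ranks PYD1A had 0.762, ER66 0.497 and abz1 0.329. After the group means were removed they had -0.473, -0.492 and 0.198, while CAB4 had -0.451 and ca2 0.305.

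TBG4 was most like eIF-5A3, a translation factor gene (0.962), ER66 (0.952) and TBG3 (0.928), and most opposite to a pair of ca2 probe sets (-0.948 and -0.935). After the group means were removed eIF-5A3 kept 0.806 with TBG4 and ER66 0.668, whereas TBG3 had -0.332. The ca2 probe sets then had -0.299 and -0.261. At 0.9 or above stood 58 probe sets. TBG6 had fewer close matches, with 11 probe sets at 0.9 or above and none of the 701 named ones among them. Its most like named genes were CIP1 (0.882), the dehydrin TAS14 (0.869) and ZEP, zeaxanthin epoxidase of the xanthophyll cycle (0.866), and the most opposite VDE, violaxanthin de-epoxidase of that cycle (-0.885), and NMP1 (-0.885). These genes part the genotypes: between watered leaves CIP1 stood at -1.59, TAS14 at -2.59, ZEP at -0.30, VDE at 2.83 and NMP1 at 0.52. After the group means were removed TAS14 had 0.879 with TBG6, whereas CIP1 had 0.45 and ZEP 0.431. VDE then had -0.659 and NMP1 -0.202.

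**Figure D4:**
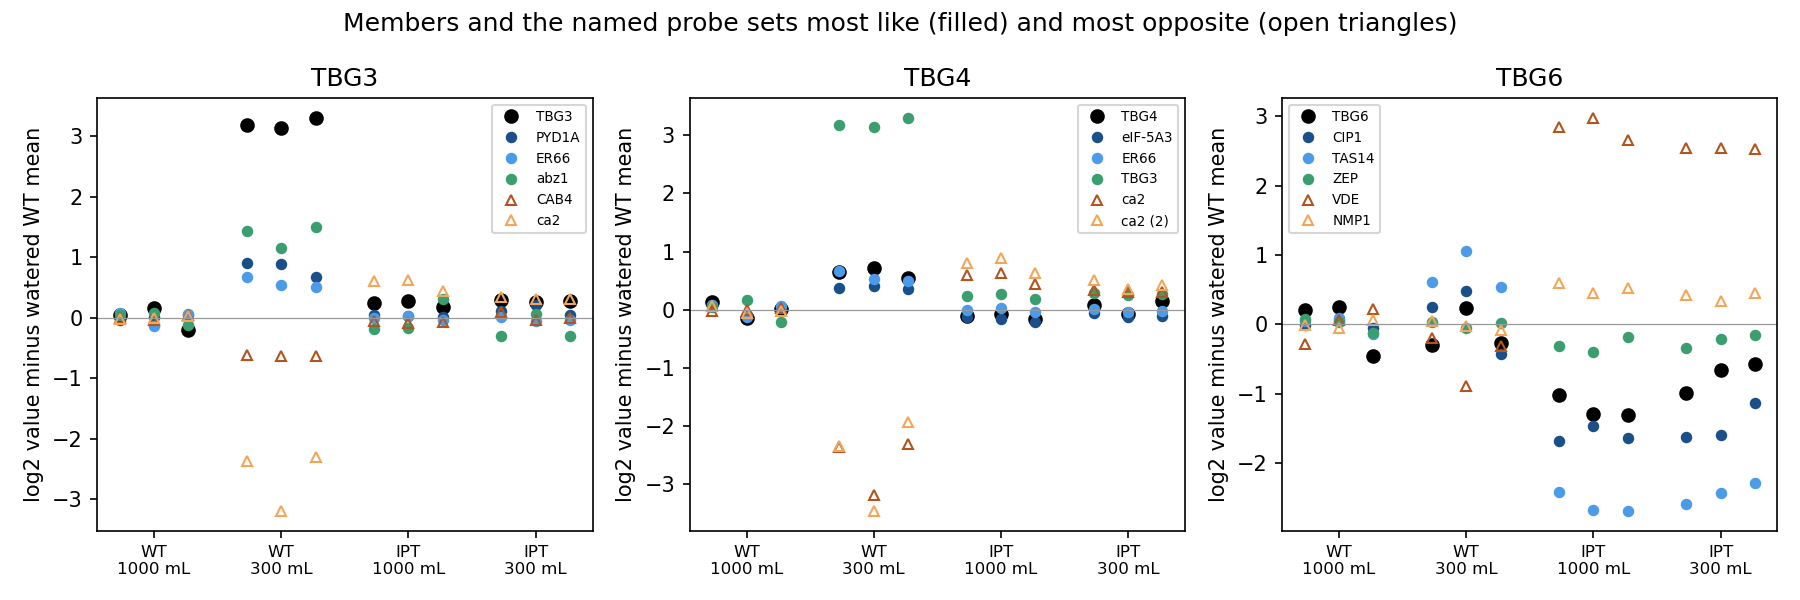
Log2 values minus the watered WT mean on each array for TBG3, TBG4 and TBG6 (black), the 3 named probe sets most like each (filled circles) and the 2 most opposite (open triangles; "(2)" marks the other ca2 probe set). The genes around TBG3 and TBG4 depart most from 0 in stressed WT, with ca2 also at 0.31 to 0.89 on the IPT arrays. Those around TBG6 depart most on the IPT arrays, with TAS14 also at 0.54 to 1.06 in stressed WT.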

How the data were processed

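RNA of 12 tobacco leaf samples was labelled as biotinylated cRNA and read on Affymetrix Tomato Genome Arrays. The deposited values are log2, as their range of 1.28 to 13.84 shows, and come from RMA according to the submitters' processing notes. Its version is not stated there. Scanner files were not used here. Of 10209 probe sets, 108 controls were left out. All arrays entered a limma 3.58.1 fit (lmFit, eBayes; R 4.3.3) that had a mean for each group, with 8 residual and 7.99 prior degrees of freedom; tests are two-sided, with p adjusted by Benjamini-Hochberg over 10101 probe sets. Standard errors are moderated. A fold is 2 to the power of the log2 difference, which is the difference of group means.

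The members, lists, tests and alternatives were chosen with earlier results of these data known. Each listed gene enters with its probe set of highest mean. Genes named are the members, per member the 3 most like and 2 most opposite named probe sets, and per comparison the listed genes that passed, or the 3 of smallest p in each direction where over 6 did. TBG1, TBG2, TBG5, TBG7, GMP and GLDH were named to complete the family and the galactose list. The poly-A controls are the 36 probe sets of dap, lys, phe and thr.

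The fit was tested on simulated data, in which 66 or 67 of 10101 probe sets were changed at each size (0.5, 1 and 2 on the log2 scale). Changes of 0.5 on the log2 scale were recovered in 32.8% to 43.3% of cases between 2 groups. For the difference of stress effects it was 7.46%. Changes of 1 were recovered in 91% to 95.5% and in 74.6%. A gene that did not pass may therefore still have changed by about 0.5. In the measured comparisons 1.36% to 16.7% of probe sets passed, so recovery there may differ from these rates. Alternatives were other scaling, array weights, an intensity trend, a filter on dim probe sets, a replicate block, a poly-A covariate, fewer arrays and leaving out each array.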

Additional observations from a re-analysis of the deposited data

Results flagged for a closer look

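CEL8, an endoglucanase gene of the cell wall list, had stress effects of opposite sign in the genotypes, and the difference itself passed (IPT minus WT 1.12 on the log2 scale, SE 0.17, limma adjusted p = 0.00104). Its mean in WT was 3.76 ± 0.05 (SD, n = 3) when watered and 3.19 ± 0.21 under stress, and in IPT 3.80 ± 0.06 and 4.35 ± 0.02. The stress effects were -0.57 in WT and 0.56 in IPT. Taken alone, the WT fall was lost in 1 of 14 alternatives (limma adjusted p up to 0.225). The IPT rise was lost in 7 of 14 (adjusted p up to 0.195), so a rise in IPT is less certain than the difference. Over the 19 alternatives for this difference the adjusted p lay between 0.000398 and 0.0075. The poly-A 3' minus 5' difference was 4.45 in stressed WT and 3.59 in stressed IPT, and the value with it as a covariate was 1.29. For TBG3, TBG4 and TBG6 the difference of stress effects was not tested.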

How the results depend on the processing

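Of 220 member differences under alternatives, 215 moved by less than the pooled SD of replicates. The other 5 came with the poly-A 3' minus 5' covariate: in WT stress TBG3 at 3.42, TBG4 at 0.50 and TBG6 at -0.58, and in the difference of stress effects TBG3 at -3.30 and TBG6 at 0.87. With that covariate the cell wall list had 0 genes passing in WT stress (5 at an unadjusted p under 0.05 in limma) and 0 in IPT stress (7 unadjusted). It had 3 between watered and 6 between stressed genotypes, and TBG5 in WT turned to -0.20. The SEs of the 7 WT stress calls were 0.24 to 0.32 with it, in place of 0.11 to 0.17. The cause of these shifts was not tested. In WT the count was 3 with only the arrays compared, a fit with fewer arrays. In IPT stress it was 5 with array weights and 4 with an intensity trend. In the difference of stress effects it was 3 with median-centring or quantile normalization, and 2 with an intensity trend, only bright probe sets, the replicate block or all probe sets per gene. With the replicate block the member differences were the same, as that design is balanced (TBG3 in WT 3.21, SE 0.12), and no other count moved by over 1.5 times. No sign of pairing by replicate number was seen: deviations of same-numbered arrays from their group means correlated between -0.194 and 0.0731 over 18 pairs. With 3 arrays per group this cannot exclude a pairing. Leaving out each array gave counts of 3 to 6 in WT stress, 0 to 2 in IPT stress, 2 to 5 and 7 to 11 between watered and stressed genotypes and 1 to 3 for the difference. In IPT the count of 0 came without watered replicate 1 or stressed replicate 2 (6 and 7 unadjusted in limma). By Spearman ranks 12 of 15 named likenesses left the top, against 3 of 15 without stressed WT replicate 2. TBG4 lies below the median brightness, so the bright probe sets give no value for it. Signal over background is unknown.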
